A study of Mus musculus with 20 samples.

Results

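The 10 apolipoprotein genes described here are Apoa1, Apoa2, Apoa4, Apoa5, Apob, Apoc3, Apoe, Apof, Apoh and Apom, taken by their gene symbols from the 37681 genes of each count table. Liver RNA was collected from male mice aged 12 weeks (strain C57/BL6 in the sample labels, C57/B6J in their growth protocol), 4 hours after an injection of IL-1β (20 µg/kg, 5 mice) or saline (5 mice, hereafter untreated). The same 10 RNA samples were sequenced on both an Illumina HiSeq and an Ion Torrent Proton instrument, with 1 library per mouse on each platform. The treated mice were ILB_9577, ILB_9578, ILB_9579, ILB_9582 and ILB_9583, and the untreated mice were UNT_9574, UNT_9575, UNT_9576, UNT_9580 and UNT_9584. The labels name no transgene or deletion, and the measurement is of whole liver and of a single time point. The question asked here is how the mRNA of these genes differed between IL-1β-treated and untreated livers, with the Illumina reads aligned by STAR as the main table.

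Apolipoproteins are the protein part of lipoproteins, the particles that carry triglyceride and cholesterol in plasma, and the hepatocyte is a main source of most of them. Apob is the structural protein of very low density lipoprotein (VLDL) and its remnants. Apoa1 and Apoa2 are the main proteins of high density lipoprotein (HDL), and smaller exchangeable apolipoproteins move between particles and tune lipases and receptors. Plasma lipoproteins are known to be remodelled during the acute phase response, the change in liver secretion that IL-1β and related cytokines set off.

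Totals per library in the Illumina STAR table were 10887640 to 11046256 reads in untreated and 10568530 to 10655860 in treated mice. In the Ion Torrent STAR table they were 12508523 to 12723326 and 12199528 to 12310601. Levels are given as CPM, counts scaled to a common library size after TMM, in which library sizes are adjusted so that a few very abundant genes do not shift the others. Because the tables were normalized apart from each other, each test of treatment stayed inside a single table. The mouse labelled UNT_9584 stood apart: the deviations of its 2 libraries from their group correlated at r = 0.246 across 10543 genes, against 0.534 to 0.707 in the other 9 mice. The authors report that the lengths of its Ion Torrent reads were shifted from those of the other samples. They propose that read length could add technical variability between Ion Torrent libraries. Its part in the values of this mouse was not tested here. All 10 hepatocyte markers were tested and abundant, with a summed level of 105903 to 124778 CPM in untreated and 124601 to 142507 CPM in treated mice. Of these markers 4 were called higher (Fga, Fgb, Hpx and Tat) and 5 lower, Alb among them (78882 to 54581 CPM), with a median log2 fold change of -0.34. Neutrophil markers summed to 2.04 to 6.16 CPM in untreated and 49.8 to 109 CPM in treated livers, and 6 of their 10 passed the minimum count. Kupffer cell and macrophage markers summed to 145 to 256 CPM in untreated and 84.6 to 203 CPM in treated livers. In bulk liver, fewer cells of a type and less RNA per cell cannot be told apart, and the part of these other cells in the results below was not tested.

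All 10 genes passed the minimum count and were tested. In untreated livers their level per kilobase of exon spanned a 283-fold range in the Illumina STAR table. Apoa2 was highest, at 9056 ± 1147 CPM per kb (SD, n = 5). Apoa1 and Apoe followed at 4500 ± 1413 and 4375 ± 1104 CPM per kb, and their ranges over the untreated mice overlapped. Apoh, at 1190 ± 147 CPM per kb, overlapped Apoc3, at 1129 ± 169. Apoa5 and Apob overlapped as well, at 424 ± 97.0 and 418 ± 46.2 CPM per kb. Apof was measured at 270 ± 15.8, Apom at 179 ± 23.3 and Apoa4 at 32.0 ± 7.69 CPM per kb. The untreated ranges of 6 of the 9 pairs of neighbours in this order did not overlap. By read count, without regard to length, Apoe ranked 9, Apob 16, Apoa1 21 and Apoa2 24 among all 37681 genes over the 10 Illumina libraries, whereas Apoa4 ranked 1842.

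With IL-1β, Apoa4 and Apoa5 rose and Apoa2, Apoc3 and Apoh fell in the Illumina STAR data, and the other 5 genes did not pass the test (edgeR's quasi-likelihood test, Benjamini-Hochberg adjusted over 15578 genes). Of the 10 genes, 2 were therefore called higher, beside 22.7% of all tested genes, and 3 were called lower, beside 22.9%. The 5 called in either direction stand beside 45.7% of all genes, a share near that background. The absolute log2 fold changes of the 10 had a median of 0.34, beside 0.47 over all tested genes, and the signed median was -0.12, beside 0.00. Untreated and treated mice overlapped for each of the 10 genes, although 33.9% of the tested genes had groups that did not overlap. Of all the calls, 49.8% were in the higher direction. Without TMM scaling this share was 38.8%, and the median log2 fold change of all genes moved from 0.00 to -0.10.

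**Figure D1:**
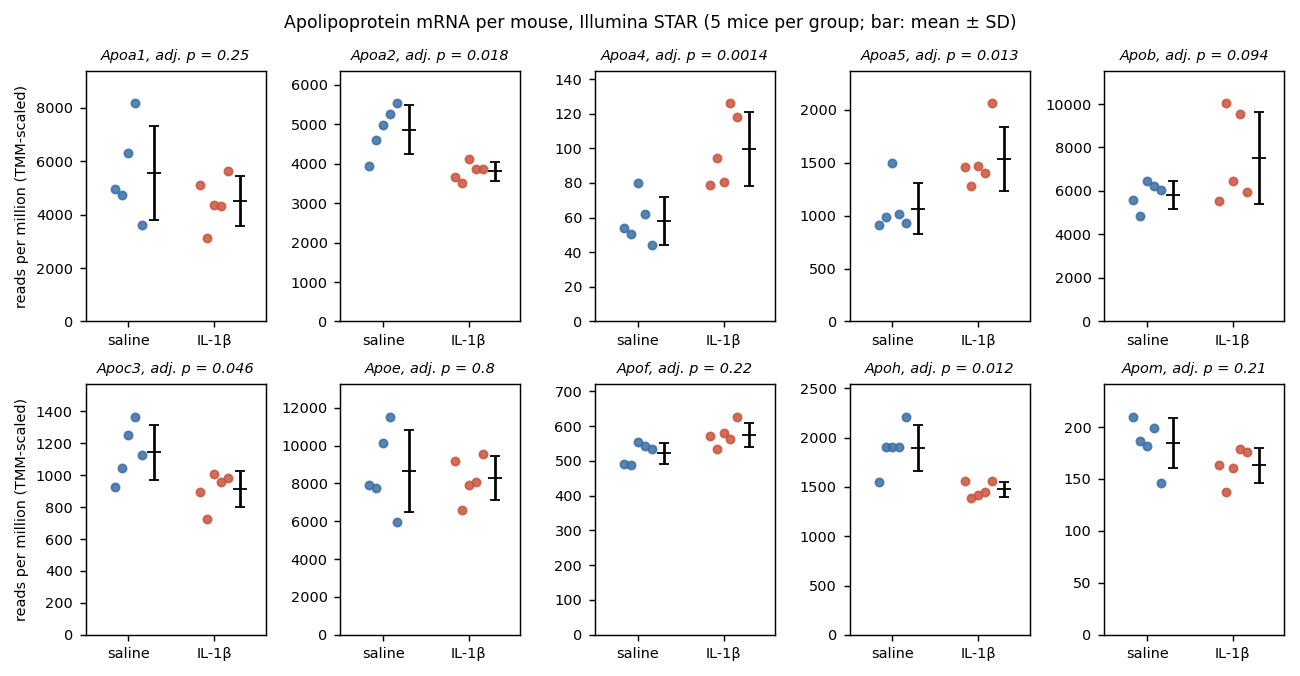
Level of each apolipoprotein mRNA in TMM-scaled CPM in the Illumina STAR table, with 1 point per mouse (blue, saline; red, IL-1β) and the mean ± SD of 5 mice as a bar; each axis starts at 0. The groups overlap in each panel, and 4 of 5 treated mice lie above all untreated mice for Apoa4 and Apof, and below all of them for Apoa2.

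Apoa4 showed the largest change of the 10. It encodes an exchangeable apolipoprotein that the intestine makes in large amounts and that the mouse liver also produces. The gene (ENSMUSG00000032080) lies on chromosome 9 from 46048779 to 46051542 (NCBIM37, plus strand). Its level was 53.9, 50.5, 80.1, 62.2 and 43.9 CPM in untreated mice UNT_9574, UNT_9575, UNT_9576, UNT_9580 and UNT_9584. It was 79.1, 94.3, 80.8, 126 and 118 CPM in treated mice ILB_9577, ILB_9578, ILB_9579, ILB_9582 and ILB_9583. Each treated mouse was above the mean of the untreated mice and 4 of 5 were above all of them, with only untreated mouse UNT_9576 reaching into the treated range. The means were 58.1 ± 14.0 and 99.7 ± 21.5 CPM (SD, n = 5 each), a log2 fold change of 0.78 (95% interval 0.42 to 1.14, edgeR adjusted p = 0.00145). With the exact rank test on the deposited counts, which also leaves out TMM scaling, the adjusted p was 0.0705. The raw counts behind these levels were 472 to 1274 reads per library. Of the 1815 exon bases of Apoa4, 839 lie within the span of the antisense gene Gm10680, its introns included. Gm10680 was listed at 0 reads in the 20 libraries of both STAR tables. Both kits keep strand, and whether the counting used it is not given in the sources used here. Of 9 exocrine pancreas and intestine markers, 6 were at 0 in all 10 Illumina libraries. Fabp2, a fatty acid binding protein best known from the intestine, held most of the reads of the other 3 and fell, with a log2 fold change of -0.53 (edgeR adjusted p = 0.0204). On Ion Torrent STAR 5 of the 9 markers were at 0 in all libraries, and Fabp2 did not pass (-0.26, edgeR adjusted p = 0.347).

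Apoa5, a liver-made activator of plasma triglyceride clearance, rose less. The gene (ENSMUSG00000032079) lies on chromosome 9 from 46076716 to 46080002. Untreated mice UNT_9574, UNT_9575, UNT_9580 and UNT_9584 had 908, 985, 1014 and 932 CPM, and untreated mouse UNT_9576 had 1498 CPM. Treated mice ILB_9577, ILB_9578, ILB_9579 and ILB_9582 had 1456, 1285, 1465 and 1408 CPM, and treated mouse ILB_9583 had 2062 CPM. Each group thus held 4 mice close together and 1 above them, and the high untreated mouse exceeded 4 of the 5 treated ones. The log2 fold change was 0.52 (95% interval 0.19 to 0.86, edgeR adjusted p = 0.0132), from 1067 ± 244 to 1535 ± 303 CPM. Without TMM scaling it was 0.39 and was no longer called (edgeR adjusted p = 0.0506). The exact rank test, also without TMM scaling, gave an adjusted p of 0.173.

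Apoa2, the second major HDL protein, fell by 0.36 on the log2 scale (95% interval -0.60 to -0.11, edgeR adjusted p = 0.0181). The gene (ENSMUSG00000005681) lies on chromosome 1 from 173155185 to 173156510 (plus strand). Its level was 3953, 4593, 4980, 5260 and 5530 CPM in untreated mice UNT_9574, UNT_9575, UNT_9576, UNT_9580 and UNT_9584. It was 3661, 3500, 4110, 3871 and 3869 CPM in treated mice ILB_9577, ILB_9578, ILB_9579, ILB_9582 and ILB_9583. The overlap came from untreated mouse UNT_9574, the lowest of its group, and treated mouse ILB_9579, the highest of its own. The group means were 4863 ± 616 and 3802 ± 232 CPM, which leaves 78.2% of the untreated level.

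Apoh, also called beta-2-glycoprotein I, is a phospholipid-binding plasma protein found in part on lipoproteins. It lies on chromosome 11 from 108204668 to 108275710 (ENSMUSG00000000049, plus strand). Untreated mice UNT_9574, UNT_9575, UNT_9576, UNT_9580 and UNT_9584 had 1552, 1910, 1903, 1903 and 2214 CPM. Treated mice ILB_9577, ILB_9578, ILB_9579, ILB_9582 and ILB_9583 had 1556, 1391, 1422, 1450 and 1564 CPM. Mouse UNT_9574 was the only untreated mouse inside the treated range. With Illumina STAR + Bowtie2 this mouse was at 1509 CPM, just above the highest treated mouse (1501 CPM), so the groups did not overlap there. Apoh fell by 0.36 on the log2 scale (95% interval -0.59 to -0.13, edgeR adjusted p = 0.0118), from 1897 ± 234 to 1476 ± 79.0 CPM. The span of the antisense gene Prkca, introns included, covers 171 of the 1594 exon bases of Apoh. Prkca itself had 31 to 122 reads per library, beside 14108 to 23830 for Apoh.

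Apoc3, an inhibitor of lipoprotein lipase and of remnant uptake, fell by 0.32 on the log2 scale (95% interval -0.59 to -0.06), with an edgeR adjusted p of 0.0457, close to the threshold. It lies on chromosome 9 from 46041016 to 46043719 on the minus strand (ENSMUSG00000032081). Untreated mice UNT_9574, UNT_9575, UNT_9576, UNT_9580 and UNT_9584 had 928, 1047, 1253, 1367 and 1127 CPM. Treated mice ILB_9577, ILB_9578, ILB_9579, ILB_9582 and ILB_9583 had 894, 728, 1010, 960 and 980 CPM. Treated mouse ILB_9578 was the lowest of the 10, and 3 of 5 treated mice were above untreated mouse UNT_9574. The call was kept in 3 of the 10 fits that each left out 1 mouse. It was lost without UNT_9576, ILB_9577, ILB_9578, UNT_9580, ILB_9582, ILB_9583 or UNT_9584, with adjusted p values of up to 0.120 and log2 fold changes of -0.40 to -0.25 over the 10 fits. It was also lost with limma-voom (adjusted p = 0.0517) and with scaling from the other genes alone (edgeR adjusted p = 0.0659).

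Apob was not called. Its levels were 5563, 4840, 6460, 6240 and 6039 CPM in untreated mice UNT_9574, UNT_9575, UNT_9576, UNT_9580 and UNT_9584. They were 5553, 10030, 6453, 9538 and 5974 CPM in treated mice ILB_9577, ILB_9578, ILB_9579, ILB_9582 and ILB_9583. Mice ILB_9578 and ILB_9582 were well above the other 8, whose levels lay together whatever the treatment, so the SD was 2108 CPM in treated and 644 CPM in untreated mice. The log2 fold change was 0.37 (95% interval 0.00 to 0.73, edgeR adjusted p = 0.0944). It passed the test only without treated mouse ILB_9577, among the 10 fits that left out a mouse (log2 fold change 0.46, edgeR adjusted p = 0.0399). The same 2 mice were highest on Ion Torrent, at 7654 and 6449 CPM beside 3567 to 5070 CPM in the other 8. The gene (ENSMUSG00000020609) spans chromosome 12 from 7984454 to 8023641 and has 13934 exon bases, the most of the 10.

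Apoa1, the main protein of HDL, varied widely between mice within each group. Its level was 4977, 4748, 6314, 8169 and 3603 CPM in untreated mice UNT_9574, UNT_9575, UNT_9576, UNT_9580 and UNT_9584, and 3144 to 5650 CPM (median 4369) in treated mice. The groups overlapped, with 4 of 5 treated mice inside the untreated range, and the log2 fold change was -0.30 (95% interval -0.73 to 0.13, edgeR adjusted p = 0.252). Apoe, the ligand by which remnants bind liver receptors and a product of macrophages as well, had 5969 to 11531 CPM (median 7899) in untreated and 6601 to 9567 CPM (median 8101) in treated mice. Its log2 fold change was -0.07 (95% interval -0.43 to 0.29, edgeR adjusted p = 0.799). Apoe became 0.06 without untreated mouse UNT_9580, so its sign rested on single mice.

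Apof, known as an inhibitor of lipid transfer between particles, varied least of the 10 between untreated mice, with 489 to 553 CPM (median 534) in untreated and 533 to 627 CPM (median 570) in treated mice. Its log2 fold change was 0.14 (95% interval -0.05 to 0.33, edgeR adjusted p = 0.221), and this sign flipped to -0.04 without any scaling of the deposited counts. Apom, which carries sphingosine-1-phosphate on HDL, had 146 to 210 CPM (median 187) in untreated and 137 to 179 CPM (median 163) in treated mice. Its log2 fold change was -0.18 (95% interval -0.41 to 0.06, edgeR adjusted p = 0.208). Without TMM scaling it was -0.31 and passed the test (edgeR adjusted p = 0.0436), and it also passed without untreated mouse UNT_9584 (-0.25, edgeR adjusted p = 0.0444). On NCBIM37, Apoa1 (ENSMUSG00000032083) lies on chromosome 9 from 46036663 to 46038549 and Apof (ENSMUSG00000047631) on chromosome 10 from 127705053 to 127707207, both on the plus strand. Apoe (ENSMUSG00000002985) lies on chromosome 7 from 20281458 to 20284515 and Apom (ENSMUSG00000024391) on chromosome 17 from 35265942 to 35268995, both on the minus strand.

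Apoa1, Apoc3, Apoa4 and Apoa5 lie within 43.339 kb of chromosome 9 and did not move together. Measured from the start of Apoa1, Apoc3 lies at 4.353 to 7.056 kb, Apoa4 at 12.116 to 14.879 kb and Apoa5 at 40.053 to 43.339 kb. Apoc3 is transcribed in the opposite direction to the other genes of the cluster. Apoc3 fell, while its neighbours Apoa4 and Apoa5 rose. Apoa1 had a negative fold change that did not pass the test. The difference between neighbours was not itself tested.

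**Figure D2:**
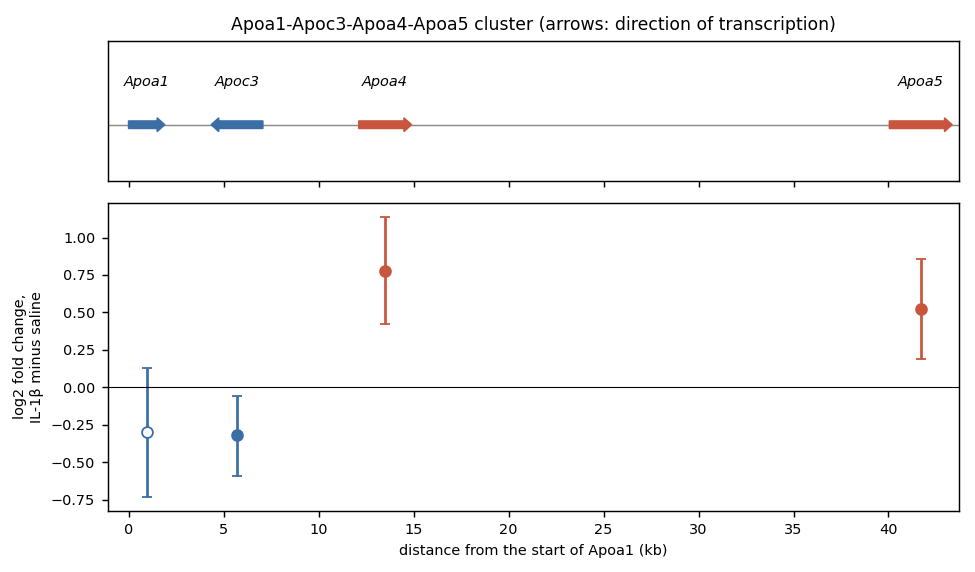
Upper panel, the 4 genes of the chromosome 9 cluster drawn to scale by distance from the start of Apoa1 in kb, with arrows in the direction of transcription (blue, negative log2 fold change; red, positive). Lower panel, log2 fold change of IL-1β minus saline with its 95% interval in the Illumina STAR table (filled, adjusted p below 0.05; open, not): Apoa1 -0.30, Apoc3 -0.32, Apoa4 0.78 and Apoa5 0.52.

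The start regions of called genes on both sides of this change are shown for comparison, from the RefSeq promoter windows of GRCm38.p6, which run from 250 bases before the annotated start to 50 bases from it. Windows were matched for 8 of the 10 genes, without Apoc3 and Apof. Letters searched on both strands were TATAAA (the TATA box), CAAAG (the core read by HNF4, a liver nuclear receptor that many apolipoprotein genes use), TTGCNNAA (C/EBP), GGGANNTTC (NF-kB) and TTCNNNGAA (STAT), where N is any base. Capitals mark the matches, and those on the reverse strand read as the complement. The sequences below run 5′ to 3′ in the direction of the gene. Apoa4 is at chr9:46240594-46240893, Apoa5 at chr9:46268383-46268682, Apoa2 at chr1:171224804-171225103 and Apoh at chr11:108395047-108395346, each on the plus strand.
Apoa4: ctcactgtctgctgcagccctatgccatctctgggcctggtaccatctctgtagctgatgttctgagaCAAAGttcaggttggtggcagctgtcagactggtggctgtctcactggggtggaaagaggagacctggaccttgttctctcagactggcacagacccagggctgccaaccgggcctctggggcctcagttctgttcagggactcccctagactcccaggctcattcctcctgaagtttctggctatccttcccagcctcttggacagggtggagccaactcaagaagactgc
Apoa5: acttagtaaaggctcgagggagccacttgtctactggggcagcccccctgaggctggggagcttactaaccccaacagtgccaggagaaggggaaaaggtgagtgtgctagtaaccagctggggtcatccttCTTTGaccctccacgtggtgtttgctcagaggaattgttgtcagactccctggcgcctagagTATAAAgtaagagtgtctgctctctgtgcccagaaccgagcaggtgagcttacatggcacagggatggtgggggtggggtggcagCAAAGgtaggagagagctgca
Apoa2: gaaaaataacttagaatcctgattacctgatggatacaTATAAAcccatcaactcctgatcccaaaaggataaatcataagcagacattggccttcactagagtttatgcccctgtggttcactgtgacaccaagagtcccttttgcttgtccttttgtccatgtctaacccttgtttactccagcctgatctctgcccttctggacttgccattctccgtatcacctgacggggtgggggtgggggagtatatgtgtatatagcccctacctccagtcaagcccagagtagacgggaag
Apoh: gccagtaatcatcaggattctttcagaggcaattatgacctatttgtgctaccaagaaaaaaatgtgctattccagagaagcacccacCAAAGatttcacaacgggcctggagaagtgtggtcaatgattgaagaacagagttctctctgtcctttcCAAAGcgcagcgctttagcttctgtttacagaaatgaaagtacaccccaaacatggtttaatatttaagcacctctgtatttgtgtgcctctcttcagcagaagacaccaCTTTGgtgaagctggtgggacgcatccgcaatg

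Apoa4 and Apoa5, which rose, held 1 and 2 matches to CAAAG. Apoh, which fell, held 3, and Apoa2 held 0. TATAAA was found in Apoa5, 56 bases before the start, and in Apoa2, 212 bases before it. CAAAG was present in 5 of the 8 windows, beside 53.9% of 32851 RefSeq windows of this length. TATAAA was present in 3 of 8, beside 13.6%. The C/EBP letters, which 10.8% of windows hold, were found once, in Apob, where they overlap a CAAAG match. The NF-kB and STAT letters, present in 3.94% and 8.30% of windows, were in none of the 8. A match is a description of letters, and no match says only that these letters are not in this window. The RefSeq start of Apoh lies 51943 bases downstream of the start of the gene as annotated on NCBIM37, that of Apoa4 148 bases downstream, and those of Apoa2 and Apoa5 at the same base.

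The other 5 tables served as a check. The sign of each of the 10 fold changes was the same in all 6 tables. Apoa4 and Apoh were called in 6 of 6 tables, with log2 fold changes of 0.47 to 0.78 for Apoa4 and -0.38 to -0.31 for Apoh. Apoc3 was called in 5 and missed the threshold in the Ion Torrent STAR table (edgeR adjusted p = 0.0546). Apoa2 and Apoa5 were called in the 3 Illumina tables and in none of the 3 Ion Torrent tables. Their Ion Torrent STAR values were -0.24 (95% interval -0.50 to 0.02, edgeR adjusted p = 0.139) and 0.36 (95% interval 0.04 to 0.68, edgeR adjusted p = 0.0661). All 5 genes were called with Illumina GSNAP and with Illumina STAR + Bowtie2, beside 47.5% and 47.4% of all genes. In the Ion Torrent tables, 2 were called with STAR, beside 42.1%, and 3 each with GSNAP and STAR + Bowtie2, beside 46.4% and 46.7%. The single call in each direction with Ion Torrent STAR stands beside 20.3% higher and 21.8% lower. The libraries of both platforms come from the same mice, so the platforms are repeat measurements and not new animals.

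**Figure D3:**
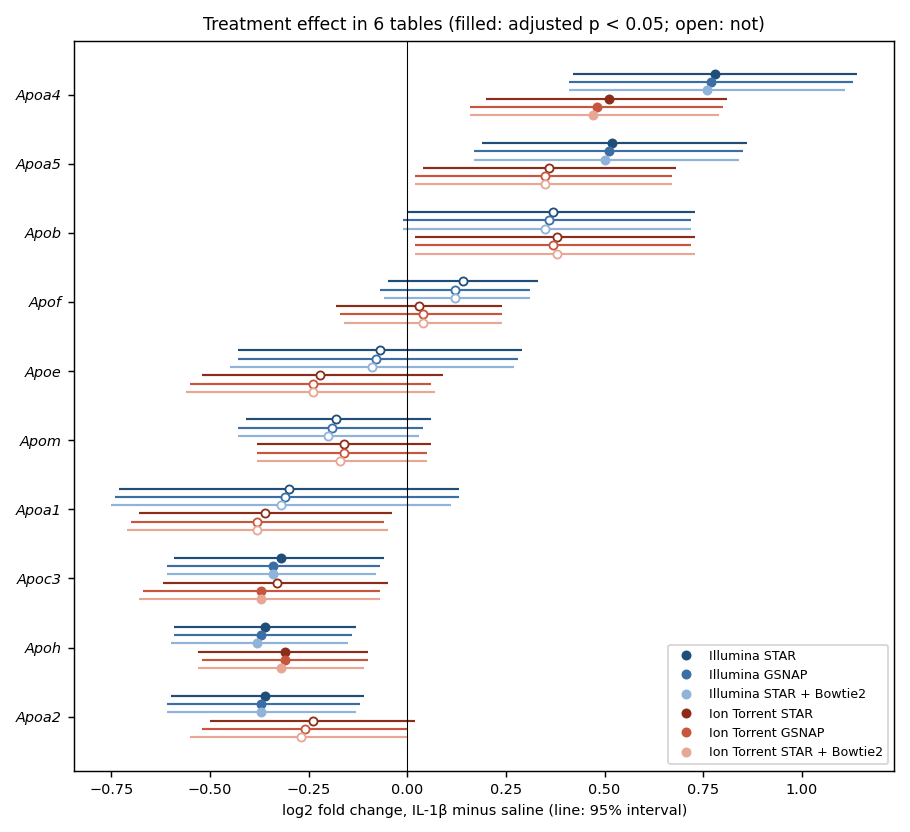
Log2 fold change of IL-1β minus saline for each of the 10 genes (vertical axis, in order of the Illumina STAR value) in the 6 tables, as points with 95% intervals (blue, Illumina; red, Ion Torrent; filled, adjusted p below 0.05; open, not). The sign of each gene is the same in all 6 tables, and only Apoa4 and Apoh are filled in all 6.

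Whether the treatment effect differed between platforms was tested with a platform-by-treatment term in the STAR tables, with the mouse as a block. None of the 10 genes passed with edgeR (adjusted p = 0.696 for the smallest) or with DESeq2. In the edgeR fit this stands beside 0.00642% of all tested genes, which is 1 gene. With an unadjusted p under 0.05, 2 of the 10 were found with edgeR, Apoa4 and Apoa2, beside 1090 of all 15578 genes (7.0%), and 1 with DESeq2, beside 633 (4.06%). The Apoa4 effect was 0.27 lower on Ion Torrent on the log2 scale, a term of -0.27 (95% interval -0.51 to -0.03). For Apoa2 the term was 0.14 (95% interval 0.01 to 0.27). That a gene was called on Illumina and missed the threshold on Ion Torrent was therefore not shown to be a difference between the platforms.

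The untreated levels themselves stood in another order on Ion Torrent, as a description with no test. Per kb of exon, the untreated ranges of 5 of the 9 pairs of neighbours in that order overlapped. Apoe was 18692 CPM there and 8662 CPM on Illumina, a ratio of 2.16, and ranked 2 of all genes by read count. Mouse UNT_9584 raised this ratio, as the untreated mouse with the highest Apoe on Ion Torrent (24640 CPM) and the lowest on Illumina (5969 CPM). Apoa1 had a ratio of 2.05, Apoa5 of 1.90, Apoc3 of 1.69 and Apoa2 of 1.63. Apob, with the longest transcript, was 0.721 of its Illumina level, and Apoh 0.795. Apoa4 and Apof were at 1.10 and 1.14. The share of all reads taken by the 10 genes was 3.11% ± 0.487 in untreated and 2.76% ± 0.135 in treated Illumina libraries (SD, n = 5), with ranges of 2.56% to 3.72% and 2.61% to 2.91%. On Ion Torrent it was 5.05% ± 0.554 and 4.17% ± 0.174. The untreated range held the whole treated range on Illumina, whereas on Ion Torrent the lowest untreated library (4.46%) was above the highest treated one (4.41%). These shares are not TMM-scaled. After TMM the summed Ion Torrent levels overlapped, at 40668 to 56233 CPM in untreated and 41139 to 47857 CPM in treated mice.

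Single mice moved several of the 10 genes at once. Treated mouse ILB_9578 had the lowest treated level of 8 of the 10 genes on Illumina and of 6 on Ion Torrent, with the highest Apob on both platforms. Treated mouse ILB_9583 had the highest treated level of 5 genes on Illumina and 4 on Ion Torrent, Apoa1, Apoa5 and Apoe on both. In untreated mouse UNT_9584 the platforms disagreed: Apoe was the lowest of the untreated mice on Illumina (5969 CPM) and the highest on Ion Torrent (24640 CPM). Apoa4 in this mouse was the lowest untreated level on Illumina (43.9 CPM) and near the highest on Ion Torrent (73.2 CPM, beside 76.2 in mouse UNT_9576). Without mouse UNT_9584, the Ion Torrent STAR fit again called Apoa4 (0.56, edgeR adjusted p = 0.00876) and Apoh (-0.31, edgeR adjusted p = 0.0350) and no other of the 10.

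**Figure D4:**
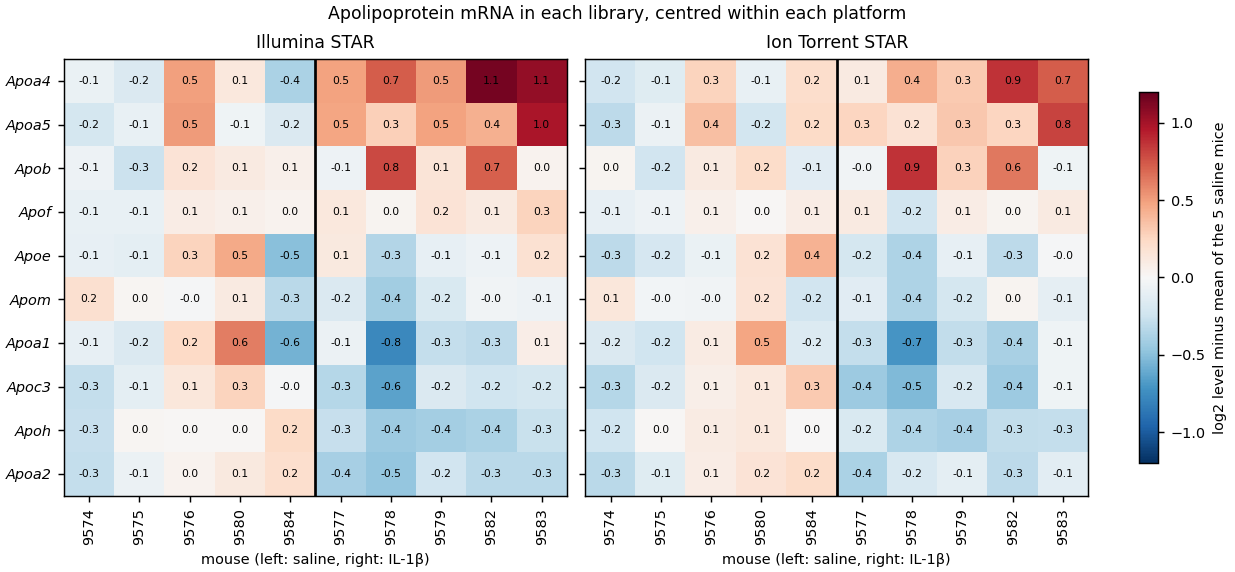
Log2 level of each gene (rows) in each library (columns, by mouse; untreated left of the line, treated right) minus the mean of the 5 untreated mice, for Illumina STAR and Ion Torrent STAR separately (red, above that mean; blue, below). Apob is high in treated mice ILB_9578 and ILB_9582 on both platforms, and Apoe in untreated mouse UNT_9584 is below the mean on Illumina and above it on Ion Torrent.

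Among abundant genes (a mean of at least 1000 reads per library), those nearest in pattern to Apoh and Apoa4 were sought by the root mean square difference of centred log2 levels over the 10 Illumina libraries. Of 1561 genes, Serpina1c, Serpina1b and Hsd17b13 were nearest to Apoh, at 0.074, 0.075 and 0.089 log2 units. Serpina1b and Serpina1c are near-identical paralogs, so their counts may be split between them. Mocs1, Grn and Pcx were nearest to Apoa4, at 0.183, 0.198 and 0.202 log2 units.

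The genes around these 10 were counted by lists, with changes given as log2 fold changes in the Illumina STAR table. These lists were chosen with earlier results known, and their counts are to be read beside the 22.7% of all genes called higher and 22.9% called lower. Of 14 other apolipoproteins listed, 10 were tested, 3 were called higher, 2 lower and 5 in neither direction, with a median log2 fold change of -0.20, beside 0.00 over all genes. Clu, which codes for apolipoprotein J, rose from 1334 ± 86.3 to 1791 ± 80.6 CPM (log2 fold change 0.42, edgeR adjusted p = 0.00151). Apon rose by 0.36. Apol7a and Apol10b, members of the apolipoprotein L family, changed most, with log2 fold changes of -2.64 and 3.89. Apol10b was scarce, at 0.258 ± 0.215 CPM in untreated and 4.02 ± 1.30 CPM in treated mice. Apoc2, the activator of lipoprotein lipase, was called lower at -0.25 (edgeR adjusted p = 0.0431), while Apoc1 had -0.27 and missed the threshold (edgeR adjusted p = 0.0530). Apoc2 and Apoc4 overlap on the same strand, so reads in the shared part cannot be assigned to one of them with certainty.

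Serum amyloid A proteins are acute phase proteins that circulate on HDL. All 4 were called higher, and their summed level of 20105 to 26196 CPM in treated mice stands beside 370 to 706 CPM in untreated mice. Saa3 had a log2 fold change of 9.56, Saa2 of 8.58, Saa1 of 6.99 and Saa4 of 1.39. In treated Illumina libraries Saa2 and Saa1, at 8975 ± 1093 and 7559 ± 926 CPM, were above Apoa1 (4519 ± 945 CPM) and Apoa2 (3802 ± 232 CPM). On Ion Torrent STAR the order was the other way, with treated means of 6339 ± 1117 CPM for Saa1 and 5405 ± 526 CPM for Saa2. Apoa1 was at 8917 ± 1420 CPM there and Apoa2 at 6744 ± 530 CPM. These read levels take no account of length. Saa1 and Saa2 are near-identical paralogs, and their separate values are uncertain for that reason.

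Of 11 tested genes of VLDL assembly and secretion, 5 were called higher and 5 lower, beside 45.7% of all genes in either direction, and their median log2 fold change was 0.06. Mttp, the microsomal transfer protein that loads lipid onto Apob, fell from 433 ± 50.7 to 200 ± 25.2 CPM (log2 fold change -1.11, edgeR adjusted p = 1.63e-06). Sar1b, a GTPase of the vesicles that carry lipoproteins out of the endoplasmic reticulum, fell by 0.93 on the log2 scale. Surf4, a cargo receptor of the same step, rose by 0.91, and Pla2g12b, a secreted phospholipase-like protein needed for VLDL secretion, by 1.18. Of the 4 genes of Apob mRNA editing, the deamination that creates the short form Apob48, the cofactor A1cf fell from 152 ± 33.5 to 50.0 ± 12.7 CPM (log2 fold change -1.60). The editing enzyme Apobec1 rose by 0.44 (edgeR adjusted p = 0.0220), and Syncrip by 0.58. Without TMM scaling 1 of the 4 was called higher in place of 2. Gene counts do not show how much of the Apob mRNA was edited.

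Of 10 genes of HDL assembly and remodelling, 3 were called higher and 3 lower, with a median log2 fold change of -0.21. Abca1, the transporter that lipidates Apoa1, rose from 233 ± 26.9 to 751 ± 224 CPM (log2 fold change 1.69, edgeR adjusted p = 2.55e-06). Scarb1, the HDL receptor SR-BI, rose by 0.69. Pon1, an antioxidant enzyme carried on HDL, fell by 0.51 on the log2 scale, and Bmp1, a protease that trims pro-apolipoprotein A-I, by 0.40. Of 9 tested lipoprotein receptors and their regulators, 1 was called higher and 2 lower, among the latter the receptor chaperone Lrpap1, which fell by 0.31 on the log2 scale. Of 5 genes of lipoprotein lipase and its regulators, 2 were called lower and 0 higher. Among these was Gpihbp1, the endothelial anchor of the enzyme, at -0.68. The lipase itself, Lpl, had 0.43 and did not pass (edgeR adjusted p = 0.161).

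Of 25 transcription factors linked to apolipoprotein genes, 5 were called higher and 8 lower, with a median log2 fold change of -0.05. Without TMM scaling these counts were 5 and 11, with a median of -0.17, beside -0.10 over all genes, where 38.8% of all calls were higher. Srebf1, the regulator of lipid synthesis, fell by 2.23 on the log2 scale, though untreated mice varied widely (204 ± 137 CPM). Nr2f2, which competes with HNF4 for its sites, fell by 1.95, and Foxa1 by 1.30. Cebpb, a factor of the acute phase response, rose by 1.37. Hnf4a rose from 687 to 1422 CPM, a log2 fold change of 1.05 (edgeR adjusted p = 3.95e-07). The other 12 of the 25 factors were called in neither direction, other nuclear receptors among them. A link between these factors and the promoter letters was not tested. On Ion Torrent STAR 20.3% of all genes were called higher and 21.8% lower. The lists gave 5 and 5 calls there for VLDL assembly and 5 and 8 for transcription factors. These counts in each direction were those of Illumina, though the factors called lower were not all the same genes. Counts higher and lower differed for HDL assembly (2 and 3), lipoprotein receptors (2 and 3) and Apob mRNA editing (1 and 1). Apobec1 was not called on Ion Torrent STAR (log2 fold change 0.43, edgeR adjusted p = 0.103).

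**Figure D5:**
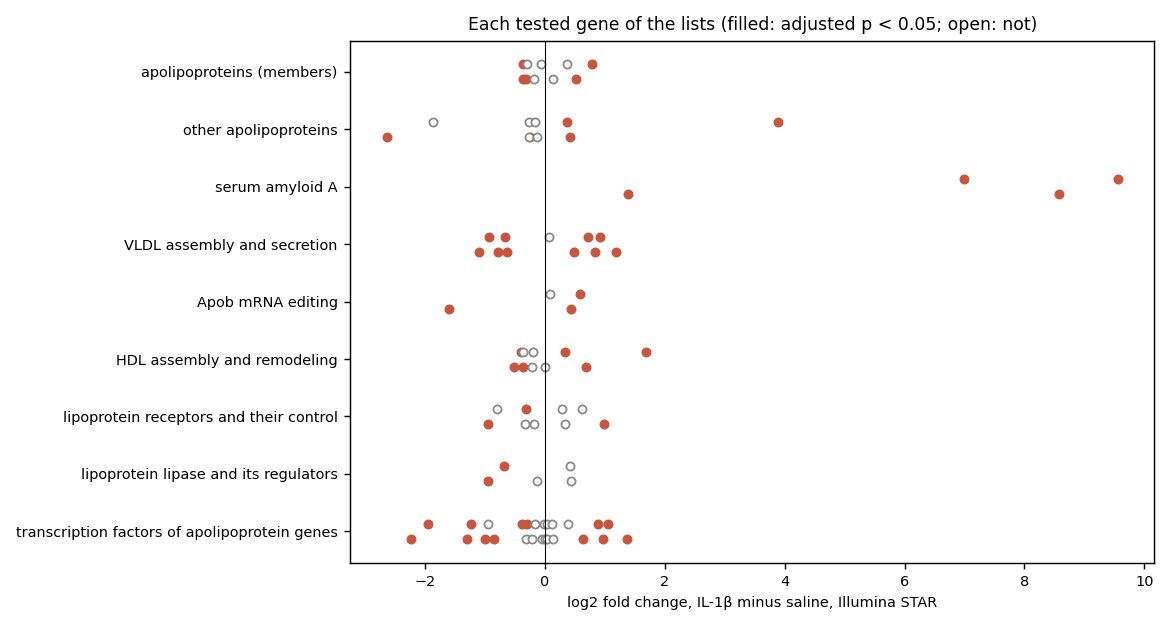
Log2 fold change of IL-1β minus saline (horizontal axis) of each tested gene of the 10 apolipoproteins and of 8 lists around them (vertical axis) in the Illumina STAR table, as points (filled, adjusted p below 0.05; open, not). The 10 apolipoproteins lie between -0.36 and 0.78, while serum amyloid A reaches 9.56.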

How the data were processed

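The authors deposited counts of reads per gene as whole numbers, 6 tables in all (3 aligners on each platform), with 10 libraries in each. Illumina libraries were made with a stranded TruSeq mRNA kit and Ion Torrent libraries with a strand-specific kit from poly-A RNA. The authors aligned reads to mm9 with STAR 2.5.1b, GSNAP (release 2015-12-31) or STAR followed by Bowtie2 2.2.9, counted them on Ensembl v67 models with PORT v0.8.1-beta, left out rRNA and mitochondrial reads, and drew reads at random so that all libraries within a table matched the smallest. Re-sampling evens out depth but does not remove differences in composition. Totals in the deposited STAR tables were close but not equal, and each treated library had a lower total than every untreated one.

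Genes reaching 5 reads in 5 or more samples of any table (15578) were tested with edgeR 4.0.16's quasi-likelihood test after TMM, called at an adjusted p below 0.05, with 95% intervals. Exon lengths for counts per kb, gene positions and overlaps were taken from a GENCODE annotation on NCBIM37, not from the Ensembl v67 models used for counting. The platform-by-treatment term used the 20 STAR libraries with the mouse as a block, since both libraries of a mouse come from the same animal. Alternatives were limma-voom (limma 3.58.1), DESeq2 1.42.0, an exact rank test, other scalings and filters, the other tables, no block, and leaving out each mouse. The exact rank test used the deposited counts without TMM. Fits were tested on simulated data. Python 3.11.15, pandas 2.3.3, numpy 2.4.6 and matplotlib 3.10.9 were used with R 4.3.3.

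The apolipoproteins and all gene lists were chosen with earlier results of these data known. Named genes were the 10 apolipoproteins and, of each list other than cell type markers, up to 4 called genes with the largest absolute log2 fold change; the likeness rule took 3 genes with at least 1000 reads for the gene with the lowest and the one with the highest fold change. Alb, Apoc1, Apoc2, Fabp2, Fga, Fgb, Hpx, Tat, Hnf4a and Lpl were outside this rule and chosen after their values were seen. Some genes that the rule names are not reported here. Of the markers, endothelial ones were called higher in 2 of 7 tested and lower in 2, stellate cell ones lower in 3 of 6, cholangiocyte ones higher in 2 of 5, and lymphocyte ones lower in 1 of 5. Hepatocyte markers were called higher in 4 of 10 and lower in 5, Kupffer cell and macrophage markers higher in 1 of 9 and lower in 3, and neutrophil markers higher in 6 of 6. The 5 treated libraries alone can meet the minimum count. Neutrophil markers scarce in untreated mice were therefore tested only where treated levels were high enough, and their count is no test.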

Additional observations from a re-analysis of the deposited data

Results flagged for a closer look

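Levels of the 10 apolipoproteins were searched in 40 groups of 5 libraries (2 STAR tables, 2 treatments) for a library whose gap to the nearest other exceeded 0.71 of the group's range, a limit that chance passes in about 1 in 20 groups, and 4 passed. Apoa5 gave 3 of them. In the Illumina STAR table, untreated mouse UNT_9576 had 1498 CPM of Apoa5, beside 908 to 1014 CPM in the other 4 untreated mice. Treated mouse ILB_9583 had 2062 CPM of Apoa5, beside 1285 to 1465 CPM in the other 4 treated mice. On Ion Torrent STAR the same treated mouse had 3506 CPM of Apoa5, beside 2254 to 2492 CPM. The remaining one was Apof in treated mouse ILB_9578 on Ion Torrent STAR, at 507 CPM, beside 607 to 641 CPM in the other 4 treated mice.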

How the results depend on the processing

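The lowest count of the 10 genes in an Illumina STAR library was 472 reads, and with 5 mice per group small differences can go uncalled. Of 230 log2 fold changes recomputed for the 10 genes under the alternatives, 201 kept their direction and their side of the threshold, 21 lost a call, 4 gained one and 4 changed sign. Calls lost were those of Apoa2, Apoa4, Apoa5 and Apoc3, and Apoh was called in all of its alternatives. The sign changes were Apof, at -0.04 with the exact rank test and with no scaling, and Apoe, at 0.06 without untreated mouse UNT_9580 and 0.00 without treated mouse ILB_9578 (range with a mouse left out -0.18 to 0.06).

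The number of apolipoproteins called higher was 2 and became 0 with the exact rank test, 1 with library totals without TMM, 1 with no scaling, and 1 in each of the 3 Ion Torrent tables. The number called lower was 3 and became 4 with library totals without TMM and with no scaling, 2 with limma-voom, with scaling from the other genes, with no filter and with Ion Torrent GSNAP and STAR + Bowtie2, and 1 in the Ion Torrent STAR table. With a mouse left out, 2 to 3 were called higher, 2 to 3 lower, and 6579 to 7020 genes in all. These counts stand beside a change over all genes. Of all calls, 35.8% were higher with the exact rank test, 38.8% without TMM and 34.9% with no scaling, beside 49.8% in the main fit. The median log2 fold change of all genes was -0.15, -0.10 and -0.15 in these 3 settings, beside 0.00.

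The platform-by-treatment term called 1 gene with the replicate block and 0 with no replicate block, 10 with GSNAP, 12 with STAR + Bowtie2, 3 with DESeq2 and 1 to 10 with a mouse left out (10 without UNT_9584, 2 without UNT_9574), and 0 of the 10 apolipoproteins each time; unadjusted p values under 0.05 were found in 1090 of 15578 genes with the block and 244 without it. Its sign changed for Apoc3 (-0.03 with GSNAP, with STAR + Bowtie2 and without UNT_9580, -0.02 without ILB_9578, -0.04 without ILB_9583) and, without UNT_9584, for Apoa1 (0.04, range with a mouse left out -0.10 to 0.04), Apob (-0.02, range -0.02 to 0.08) and Apoe (0.09, range -0.21 to 0.09).

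The share of reads taken by the 10 genes was 5.05%, 4.99% and 4.70% in untreated and 4.17%, 4.12% and 3.91% in treated libraries with Ion Torrent STAR, GSNAP and STAR + Bowtie2. Without TMM, 4 other apolipoproteins were called lower and 1 gene of Apob mRNA editing higher, and the counts higher and lower were 2 and 4 for HDL assembly, 1 and 3 for lipoprotein receptors and 5 and 11 for transcription factors. Without TMM the median log2 fold change of all genes was -0.10, and 38.8% of all calls were higher. With Ion Torrent STAR, 1 gene of Apob mRNA editing, 2 of HDL assembly and 2 of the lipoprotein receptor list were called higher, beside 20.3% of all genes. The causes of these changes were not tested.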
